A study of Drosophila melanogaster with 12 samples.

Results

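Polycomb group (PcG) and Trithorax group (trxG) proteins are the chromatin factors that keep developmental genes off or on through cell divisions. PcG proteins work in several complexes. PRC2 methylates a lysine in the tail of histone H3, PRC1 ubiquitylates histone H2A and compacts chromatin, PhoRC binds DNA, and PR-DUB removes ubiquitin from histone H2A. The trxG proteins counteract them, either as histone methyltransferases of the Trithorax family or as ATP-dependent remodellers built around Brahma or Kismet. In the *Drosophila* ovary, PcG proteins act both in the germline and in the somatic follicle cells. The 33 genes described here are the members of these complexes, chosen by symbol from the deposited table of RNA sequencing results, and all 33 were found among its 14303 genes.

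RNA was taken from ovaries of 4-day-old *D. melanogaster* females of 2 genotypes, with 3 libraries each. The *D1* mutant females carried the allele labelled D1Kyoto over the deficiency labelled D1Bsc666, a chromosomal deletion that spans the *D1* locus and its neighbours. The control females carried D1Kyoto over the balancer chromosome TM6C, so they were heterozygous for the same allele. According to the series text and the study, all females were also mutant for *chk2*, the checkpoint kinase that arrests damaged germ cells. D1 is a protein that binds satellite DNA. About 5 ovaries were dissected per genotype according to the labels, while the methods give about that number of ovary pairs per sample, so each library is a pool. The libraries were depleted of rRNA and read as paired ends of 150 bases.

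The only measurement used here is the authors' deposited mean of the normalized counts of each gene over all 6 libraries, both genotypes together. The table's other number columns hold the authors' own comparison of the genotypes and were not used. The mutant and the control are therefore not compared, no spread between libraries can be given, the loss of *D1* could not be checked by library, and the depth of each library is unknown. Differences between genes are given as values without a test, and whether neighbours in the order of levels differ beyond the spread between libraries is unknown. Because a longer gene collects more reads, levels are compared between genes by the mean divided by the length of all their exons together (the level per kb). Each level is a mean over whole ovaries, in which fewer cells of a type and less RNA per cell cannot be told apart.

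The sample labels name ovaries and germline cells, while the series text names testes. All 8 genes listed as markers of the ovarian germline had at least 834.8 mean normalized counts, and *osk* and *nos* had 29523 and 36523. All 10 genes listed as testis markers were under 100, with a highest mean of 68.9 for *topi*. The 8 follicle cell markers ranged from 645.5 to 161945 mean normalized counts and the 6 markers of the muscle sheath from 255.8 to 3974, so the RNA was that of whole ovaries rather than of germline cells alone. Of the 4 fat body markers, *apolpp* had 4371 and the others were under 10.

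All 33 members were expressed, with means between 302.6 and 17591 normalized counts. A mean of at least 100 was reached by 58.2% of the 14241 genes whose length was known and by 63.7% of the protein-coding ones. Per kb of exon the members ran from 43.9 to 9623, a 219-fold range, with a median of 738.7. The median over all genes was 215.8 per kb, and 25 of the 33 members (75.8%) lay above it, against 53.6% of protein-coding genes. The median member stood above 64.7% of all genes. Together the members held 0.311% of the summed means of all genes, and the 5 with the highest means held 43.3% of the members' own sum. The 20 PcG genes had a median of 821.8 per kb and the 13 trxG genes one of 558.6. The trxG genes ranged from 153.2 to 6907 per kb, within the PcG range of 43.9 to 9623. The 5 lowest members, from 43.9 to 134.6, were all PcG genes.

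**Figure D1:**
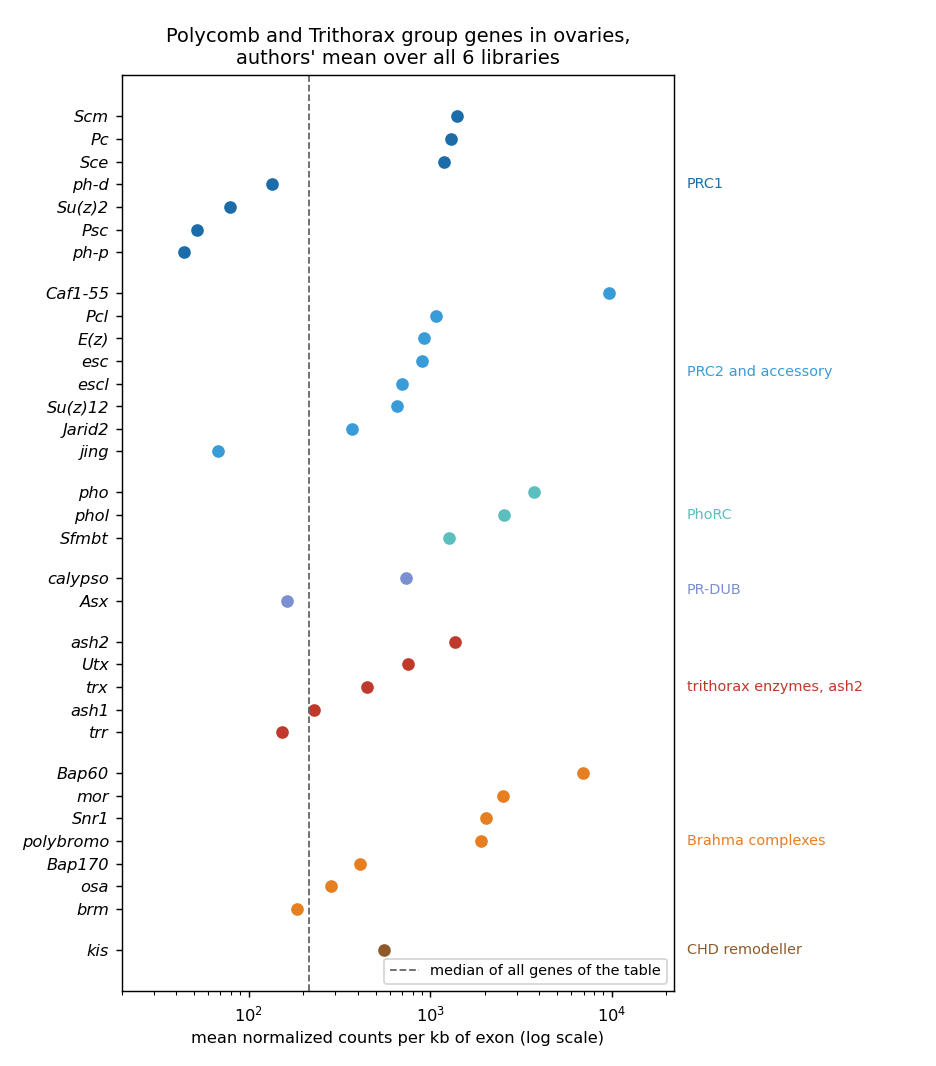
Level of each Polycomb and Trithorax group gene, grouped by complex. The horizontal axis is the authors' mean of normalized counts over all 6 libraries per kb of exon, on a log scale, each point is 1 gene, and the dashed line is the median of all genes, 215.8. Within PRC1, *Scm*, *Pc* and *Sce* lie between 1189 and 1406 while both *ph* genes, *Psc* and *Su(z)2* lie between 43.9 and 134.6.

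The subunits of PRC1 fell into separate levels. *Pc*, whose chromodomain reads the PRC2 mark, had 3203 mean normalized counts or 1301 per kb. *Sce*, the RING-type ubiquitin ligase, had 1833 mean normalized counts or 1189 per kb. *Scm*, a protein with a SAM domain that links PRC1 to other PcG complexes, had 5722 mean normalized counts or 1406 per kb. *Pc*, *Sce* and *Scm* lay within 1.18-fold of one another per kb. In *Scm*, 7.7% of the exon bases overlap *SpdS* on the opposite strand, which had 5164 mean normalized counts. Whether the counting used strand is not stated, so the value of *Scm* may include reads of *SpdS*. The remaining subunits come as pairs of neighbouring paralogues and were all below the median of all genes. *ph-p* and *ph-d* encode the Polyhomeotic proteins, whose SAM domains polymerise. *ph-p* had 302.6 mean normalized counts or 43.9 per kb, the lowest value of all members, and *ph-d* had 824.4 or 134.6 per kb. *Psc* and *Su(z)2* encode partners of the ligase that compact chromatin. *Psc* had 331.2 mean normalized counts or 52.3 per kb, and *Su(z)2* had 532.4 or 79.2 per kb. Per kb, *Pc* was thus 29.6 times *ph-p*, 24.9 times *Psc* and 9.67 times *ph-d*, and *Sce* was 22.7 times *Psc*.

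The *ph* genes are a tandem duplication on the X chromosome, 2.92 kb apart. Of the distinct stretches of 100 bases in the transcripts of *ph-p*, 23.9% occur unchanged in those of *ph-d*, and of those of *ph-d* 27.7% occur in *ph-p*. At 150 bases, the length of a read, the shares were 18.7% for *ph-p* and 22.0% for *ph-d*. Read pairs that lie wholly within shared sequence cannot be assigned to either gene by their sequence. How the counting treated them is not stated, so the 3.06-fold difference per kb between *ph-d* and *ph-p* is uncertain. The longest identical coding run covers 528 bases. Its beginning is shown as an example of a place where the genes become identical. Other shared stretches lie outside this run. Each line runs 5′ to 3′ on the minus strand (release 6 genome) at chrX:2131031-2131150 for *ph-p* and chrX:2121127-2121246 for *ph-d*, with 30 preceding coding bases in lower case and the first 90 bases of the shared run in capitals.
ph-p: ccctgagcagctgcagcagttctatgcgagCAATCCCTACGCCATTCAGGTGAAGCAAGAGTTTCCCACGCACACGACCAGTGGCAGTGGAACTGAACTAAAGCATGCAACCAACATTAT
ph-d: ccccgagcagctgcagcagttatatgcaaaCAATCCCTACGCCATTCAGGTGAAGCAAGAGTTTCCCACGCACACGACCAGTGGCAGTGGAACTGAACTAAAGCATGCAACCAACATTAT

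The other pairs of paralogues share no exact stretch of 50 bases, so their levels are separate measurements with respect to each other. *Psc* and *Su(z)2* lie 15.5 kb apart on chromosome arm 2R, and *Su(z)2* was 1.51 times *Psc* per kb. All 4 genes of these neighbouring pairs lay between the 38.1st and the 46.1st percentile of all genes per kb, although each had at least 302.6 mean normalized counts.

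Within the core of PRC2, *E(z)*, *Su(z)12*, *esc* and *escl* lay close together, while *Caf1-55* stood apart. *E(z)*, the methyltransferase itself, had 2470 mean normalized counts or 926.7 per kb. *Su(z)12*, the zinc finger subunit that the enzyme needs, had 2680 mean normalized counts or 654.0 per kb. *esc* and *escl* encode alternative WD-repeat subunits that bind the methylated histone tail, and had 904.9 and 700.1 per kb. These 4 genes therefore lay within 1.42-fold of one another per kb. *Caf1-55*, the further core subunit, is a histone chaperone that PRC2 shares with the nucleosome assembly and NuRD complexes. It had 17591 mean normalized counts or 9623 per kb, the highest value of all members and 10.4 times *E(z)*. The accessory subunits differed from one another as well. *Pcl*, which helps PRC2 methylate its targets, had 1071 per kb. *Jarid2* had 371.3 per kb. *jing*, the fly relative of AEBP2, had 67.7 per kb, so that *Pcl* was 15.8 times *jing*. The *jing* value depends on the gene model more than any other, since its 4 annotated transcripts differ in length, and it was 1.62 times as high when divided by the median transcript length.

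*esc* and *escl* lie 161.5 kb apart on arm 2L. Their longest identical coding run is 20 bases, shown here in capitals between 30 coding bases on each side to let the divergence of these paralogues be seen. The stretches are at chr2L:11828175-11828254 on the minus strand for *esc* and chr2L:11991692-11991771 on the plus strand for *escl*.
esc: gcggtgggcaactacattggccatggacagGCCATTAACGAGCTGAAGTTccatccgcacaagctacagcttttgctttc
escl: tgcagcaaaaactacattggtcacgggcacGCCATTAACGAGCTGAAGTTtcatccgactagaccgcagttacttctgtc
*escl* has a different near copy. Of the 100-base stretches in its exons, 27.4% occur again in the genome, at *Qtzl* (chr2L:11995740-11996723, plus strand), which begins 2.89 kb downstream and is a chimeric gene formed in part from *escl*. Among the distinct 100-base stretches in the transcripts of *escl*, 22.2% occur in those of *Qtzl*, which make up 45.8% of those of *Qtzl*. *Qtzl* had 692.2 mean normalized counts and *escl* 1266, so the level of *escl* is uncertain. Apart from *escl* and the *ph* genes, no member had an exonic stretch of 100 bases with a further exact copy in the genome.

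The DNA-binding complex PhoRC had the highest median level among the PcG complexes, 2559 per kb against 802.5 for PRC2, although *Caf1-55* of PRC2 was higher than any of its members and *Sfmbt* was below *Scm* and *Pc* of PRC1. *pho* and *phol* encode zinc finger proteins related to mammalian YY1, which bring PcG proteins to DNA. *pho*, the only member on chromosome 4, had 8855 mean normalized counts or 3719 per kb, and *phol* on 3L had 8659 mean normalized counts or 2559 per kb. Their levels per kb differed 1.45-fold. *Sfmbt*, the partner protein that binds methylated lysines through its MBT repeats, had 6385 mean normalized counts or 1276 per kb. An antisense RNA and a further gene on the opposite strand overlap 18.4% of its exon bases, the largest overlap among the members. The overlapping antisense RNA had 790.8 mean normalized counts. Whether the counting used strand is not stated, so the value of *Sfmbt* may include reads of these genes. In PR-DUB, *calypso*, the deubiquitinase, had 738.7 per kb and *Asx*, its activating partner, 162.9, a 4.54-fold difference per kb. Their means were 1586 and 1167 normalized counts. In *calypso*, 10.1% of the exon bases overlap *clu* on the opposite strand, and *clu* had 15136 mean normalized counts. The value of *calypso* may therefore include reads of *clu*, and its difference from *Asx* is uncertain.

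Among the trxG genes, the histone methyltransferases with a SET domain, *trx*, *ash1* and *trr*, were lower per kb than the members *Utx* and *ash2*. Subunits of COMPASS-type complexes outside the members lay on both sides of these enzymes, from *Ptip* at 84.1 per kb, below all of them, to *Dpy-30L1* at 2465 per kb. *trx*, the founding member, had 6283 mean normalized counts or 447.1 per kb over 14.1 kb of exon. *ash1* had 1744 mean normalized counts or 229.0 per kb. *trr*, the enzyme of the COMPASS-like complex that acts at enhancers, had 1274 mean normalized counts or 153.2 per kb. *Utx*, the demethylase in the complex of *trr* that removes the PRC2 mark, had 753.6 per kb, 4.92 times *trr*. *ash2*, a subunit common to the COMPASS-type complexes, had 1367 per kb, 3.06 times *trx* and 8.92 times *trr*. With the median transcript as length, *ash2* was 14.1 times *trr*. *Utx*, which removes the PRC2 mark, and *E(z)*, which places it, had levels of 753.6 and 926.7 per kb.

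The Brahma remodellers showed the widest differences among the trxG subunits. *brm*, the ATPase that gives the complexes their name, had 1040 mean normalized counts or 185.8 per kb, the lowest of the 7 subunits. *mor*, a scaffold subunit, had 10062 mean normalized counts or 2526 per kb. *Snr1* had 2035 per kb and *Bap60* 6907 per kb. Per kb, *Snr1* was thus 11.0 times, *mor* 13.6 times and *Bap60* 37.2 times *brm*. All of them are core subunits found with the ATPase. The complexes come as BAP, which contains *osa*, and PBAP, which contains *polybromo* and *Bap170* instead. *osa* had 283.3 per kb, *Bap170* 409.3 and *polybromo* 1901, so the PBAP subunits were 1.44 and 6.71 times *osa*. *kis*, a remodeller of the CHD family, had 10741 mean normalized counts or 558.6 per kb over 19.2 kb of exon.

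Level and length went together among the members. Over the 33 genes the Spearman correlation of exon length with the level per kb was -0.72, and over the 10700 genes of the table with a mean of at least 10 it was -0.14. Both are descriptions across genes, which share the same libraries and of which length is itself part of the level per kb. The correlation of exon length with the mean not divided by length was -0.22 over the members and 0.28 over the 10700 genes. No member had a mean below 302.6 normalized counts, while the 10700 genes begin at 10, so the sets differ in their lowest levels. They also differ in kind, since all members are protein-coding and the 10700 genes include noncoding ones. The same 10700 genes give the medians by length that follow. The 11 members with less than 3 kb of exon ranged from 700.1 to 9623 per kb, and 9 of them lay above 786.8, the median of genes of that length. The 10 members from 3 to 6 kb had a median of 1173 against 584.8 for such genes. The 12 members of 6 kb or more ranged from 43.9 to 558.6 and had a median of 158.1, against 229.1 for genes of that length, with 4 of them above it. No member under 3 kb overlapped in level with any member of 6 kb or more.

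**Figure D2:**
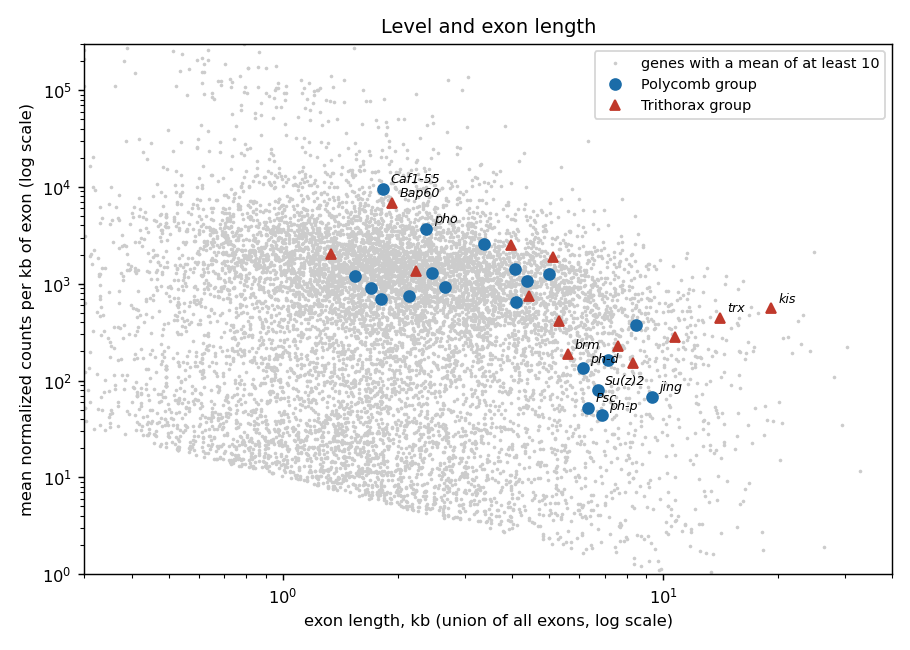
Level per kb against exon length, both on log scales. Blue circles are PcG genes and red triangles trxG genes, each point being the authors' mean over all 6 libraries. Grey points are those of the 10700 genes with a mean of at least 10 normalized counts that fall within the axes. Genes outside the axes are not drawn. The members of 6 kb or more lie between 43.9 and 558.6 per kb and those under 3 kb between 700.1 and 9623.

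The members lie on all major chromosome arms, with 9 on 3R, 7 each on 2R and 3L, 5 on 2L, 4 on X and 1 on chromosome 4. Neighbours could differ widely. *phol* and *Jarid2* lie 20.8 kb apart on 3L with 2559 and 371.3 per kb, and *jing* and *Bap170* lie 14.7 kb apart on 2R with 67.7 and 409.3 per kb. *Scm* is the member closest to *D1* (chr3R:9238083-9240654), at a distance of 392.7 kb, and the next on that arm, *Snr1*, is 3765 kb away. The breakpoints of the deficiency were not used here, so whether *Scm* was present in a single copy in the mutant was not tested.

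Other genes of these pathways were also expressed. A list of 33 further genes was taken from textbook knowledge. Of the 7 other PcG genes, 6 lay above the median of all genes per kb, as did 8 of 10 other subunits of COMPASS-type complexes, 3 of 3 other Brahma subunits and 4 of 6 other trxG genes. All 26 of these had a mean of at least 100 normalized counts, with levels from 68.7 to 4418 per kb. The Brahma subunits *Bap55*, *Bap111* and *e(y)3* had 3227, 2835 and 695.6 per kb, again above *brm*. Of the 7 genes for proteins proposed to help bring PcG proteins to their sites, 6 had a mean of at least 677.4. The exception was *grh*, with 12.5 mean normalized counts.

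The classical targets of PcG repression were low. Of 8 Hox genes, 7 were in the table, and *lab*, *pb*, *Dfd*, *Ubx* and *Abd-B* each had under 10 mean normalized counts. *Antp* had 55.7 and *abd-A* 104.0. Per kb the 7 genes ranged from 0.439 in *lab* to 19.0 in *abd-A*, all below the lowest member, *ph-p*, at 43.9. Of 12 other listed target genes, 11 were found, with a median of 2.10 per kb, and 9 of them had under 100 mean normalized counts. The exceptions were *eya*, which controls the fate of follicle cells, with 2090 mean normalized counts, and *ci*, the transcription factor of Hedgehog signalling, with 1090. *Scr* and *eve* were not analysed here.

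**Figure D3:**
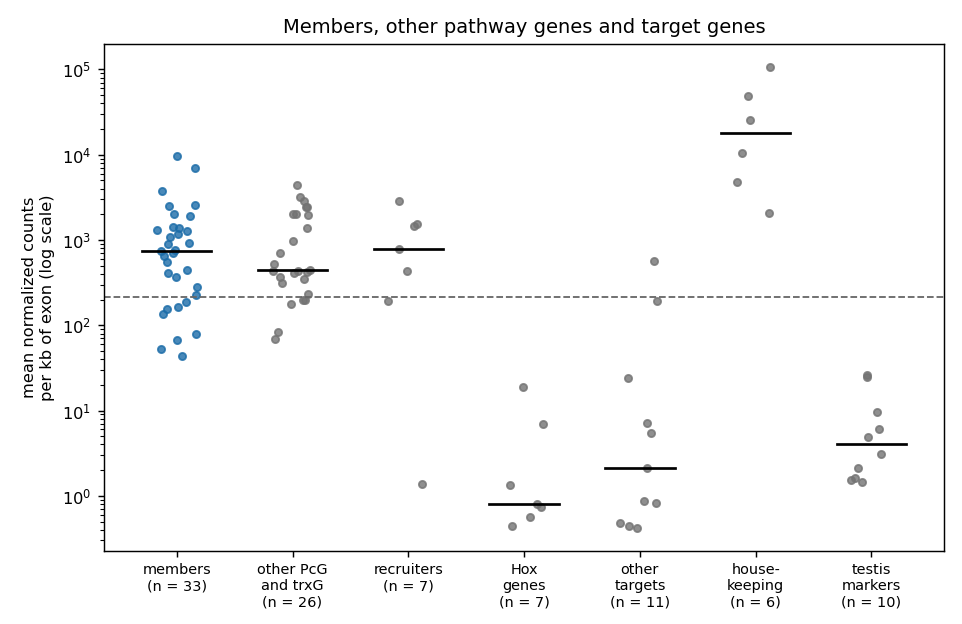
Levels of the members beside those of other gene lists. The vertical axis is the authors' mean of normalized counts over all 6 libraries per kb of exon, on a log scale, each point is a gene, the black bars are medians and the dashed line is the median of all genes. The members have a median of 738.7, the 26 other PcG and trxG genes lie between 68.7 and 4418, and the 7 Hox genes lie between 0.439 and 19.0.

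The DNA in front of the members was searched for short motifs, each on both strands, in the window from 250 bases before to 50 bases after the most upstream annotated start of each gene. The letters GAGAG are bound by the GAGA factor, and TATCGATA is the DRE, a core promoter element common in housekeeping genes. GAGAG was found in 9 of 33 member windows (27.3%) and in 30.4% of those of 12145 protein-coding genes of the table. The 5 members with the lowest levels per kb, *ph-p*, *Psc*, *jing*, *Su(z)2* and *ph-d*, all had it, as did 4 of the other 28. This group was cut from the order of levels itself, ends where the run of GAGAG ends, and includes both neighbouring pairs of paralogues. The next members in the order, *trr*, *Asx*, *brm* and *ash1*, had no match. Members with GAGAG had a median of 134.6 per kb and those without it one of 987.9. However, the 5 lowest have 6.13 to 9.32 kb of exon, and no member of 6 kb or more exceeded 558.6 per kb. *trr*, *Asx* and *ash1*, without GAGAG, are of that length too. How far length accounts for the difference in level was not tested. Among 9609 protein-coding genes with a mean of at least 10 normalized counts, the median was 372.2 per kb with GAGAG and 871.8 without. In the list of PcG targets, 13 of 18 genes had it (72.2%), 6 of the 7 Hox genes among them. The medians there were 1.32 per kb in genes with GAGAG and 0.864 in those without. In 5 of the 7 Hox genes and 6 of the 11 other targets the mean was under 10 normalized counts, so no order is read from these medians. The DRE was found in 5 members (15.2%), *Scm*, *Sfmbt*, *osa*, *mor* and *Bap170*, and in 10.5% of the protein-coding genes. Its carriers among the 9609 genes had a median of 1311 per kb and the others one of 602.4. GCCAT, the core of the site bound by Pho, was found in 21 members (63.6%) and in 40.5% of the protein-coding genes, and in 12 of the 18 targets. TATAAA was found in 15 members (45.5%) and in 44.9% of the protein-coding genes. These short motifs may occur by chance and can overlap, several genes have further starts, and a match is no proof of binding.

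**Figure D4:**
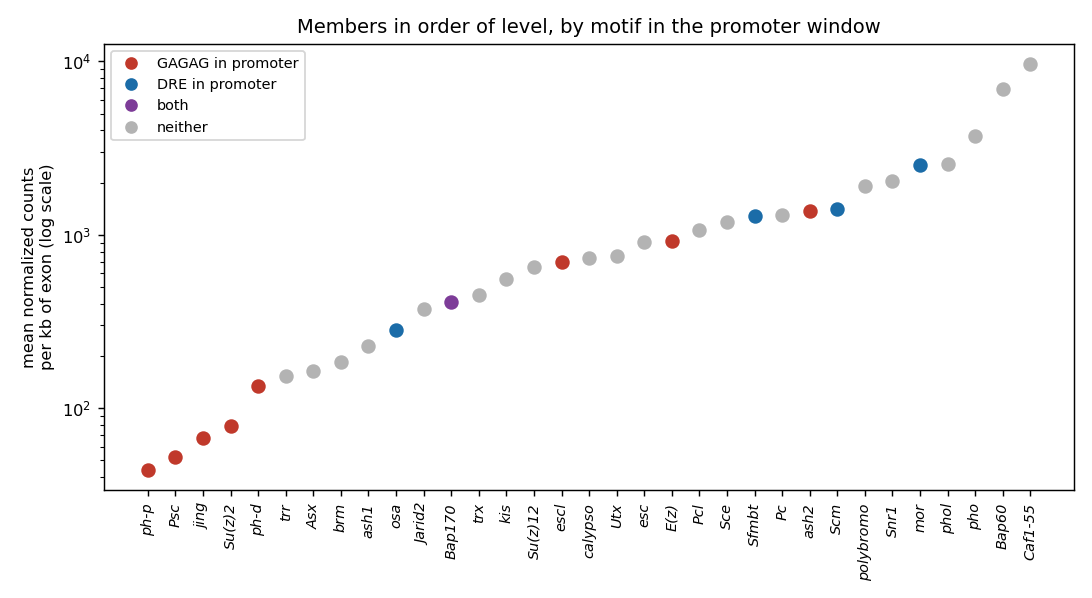
Members ordered by level, coloured by the motif found in the promoter window. The vertical axis is the authors' mean of normalized counts over all 6 libraries per kb of exon, on a log scale, red points carry GAGAG, blue points the DRE, purple both and grey neither. The 5 lowest members, a group cut from this same order, lie from 43.9 to 134.6 and all carry GAGAG. The members next above them, *trr*, *Asx*, *brm* and *ash1*, do not.

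The stretches upstream of the *ph* genes are shown because these low members carry the GAGA letters, with every match to GAGAG or its complement in capitals. They are the 250 bases before the start, chrX:2138372-2138621 for *ph-p* and chrX:2123287-2123536 for *ph-d*, 5′ to 3′ on the minus strand of the release 6 genome.
ph-p: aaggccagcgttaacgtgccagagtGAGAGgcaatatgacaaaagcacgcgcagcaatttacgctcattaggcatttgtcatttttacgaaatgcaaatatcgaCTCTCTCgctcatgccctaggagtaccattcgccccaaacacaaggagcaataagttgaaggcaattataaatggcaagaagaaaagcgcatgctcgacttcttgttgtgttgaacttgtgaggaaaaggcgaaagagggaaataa
ph-d: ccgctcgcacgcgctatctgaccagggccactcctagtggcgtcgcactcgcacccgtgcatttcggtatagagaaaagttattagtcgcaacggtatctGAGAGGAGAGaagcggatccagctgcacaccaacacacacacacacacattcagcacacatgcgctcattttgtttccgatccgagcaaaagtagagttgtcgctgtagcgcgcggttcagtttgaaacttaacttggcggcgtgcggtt

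*Scm*, *mor*, *osa* and *Bap170* carry the DRE close to the start. *Bap170*, at 409.3 per kb, also has 6 overlapping matches to GAGAG further upstream, so the motifs do not sort the members into separate sets. The 60 bases before the start are shown for *Scm*, *mor* and *osa*, on the minus strand, with the DRE in capitals, at chr3R:9637612-9637671 for *Scm*, chr3R:15972914-15972973 for *mor* and chr3R:17718351-17718410 for *osa*.
Scm: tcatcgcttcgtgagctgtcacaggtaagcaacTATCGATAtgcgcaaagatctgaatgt
mor: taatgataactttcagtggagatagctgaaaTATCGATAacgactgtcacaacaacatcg
osa: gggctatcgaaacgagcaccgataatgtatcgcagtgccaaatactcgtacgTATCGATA
*Scm* and *mor* had 1406 and 2526 per kb, while *osa*, whose exons cover 10.7 kb, had 283.3.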

How the data were processed

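Reads were trimmed and filtered by the authors with BBTools. STAR then placed them on genome build BDGP6.32, and TEtranscripts quantified genes and transposons. The versions of STAR and TEtranscripts, the annotation release, the counting mode and the use of strand are not given in the sources used here. The deposited table was made with DESeq2 1.37.4 by the authors. Its signal column is the authors' mean over all libraries of counts divided by size factors. The columns with the authors' fold changes, standard errors, Wald statistics and p-values, and their marks of raised and lowered genes, hold the authors' comparison and were not used. The planned test of mutant against control needed counts per library and was not run. No other column of single samples was present, and the small RNA libraries were not analysed here.

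The table has 18049 entries, of which 9 have no name and 1 repeats an identifier, leaving 18039 features and 14303 genes. Exon lengths and gene positions were taken from Ensembl release 115 (BDGP6.54), in which the FlyBase identifiers of 14241 genes were found. Sequences come from the RefSeq release 6 genome, the same assembly release, and 99.7% of 13968 coding sequences read from it began with ATG. Percentiles are the share of genes with a lower level. Exact stretches of 50, 100 and 150 bases were compared between paralogues. Functions were tested on simulated data. Calculations used Python 3.11.15, pandas 2.3.3 and scipy 1.17.1. All members are named by rule. Members and lists were chosen with earlier results of these data known. Alternatives were the longest or median transcript and exon bases free of other genes as length, and other backgrounds. The motif search and the search for exact copies elsewhere in the genome were added after the data were seen.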

Additional observations from a re-analysis of the deposited data

How the results depend on the processing

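No paired analysis was possible because the table holds no values per library, and for the same reason no replicate could be left out and no test was run. With the median transcript as length, the median level over the members was 758.1 per kb. With only exon bases that overlap no other gene as length, it was 753.6. That setting shortened the length but kept all reads, so it can only raise a level. It cannot show how many reads came from overlapping genes. With the longest transcript the median level was unchanged, while the medians of PRC1, PR-DUB and *kis* became 136.9, 455.1 and 579.7 per kb. These changes in length moved 8, 12 and 6 of the 33 members in their order (longest transcript, median transcript and exon bases free of other genes), by at most 3 places. The median member stood above 53.0% of genes with a mean of at least 10 and above 61.2% of protein-coding genes, so its place depends on the genes it is set beside. With stretches of 50 bases, 30.3% of *ph-p* and 34.5% of *ph-d* were shared, and with 150 bases 18.7% and 22.0%. All other pairs stayed at 0.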
